A study of Mus musculus with 21 samples.

Results

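The genes described here are a list of 40 mouse genes of mitosis and the G2/M transition, of which 36 had a row of their own in the deposited expression table of 21844 symbols. They were taken by gene symbol, with the row of highest mean where a symbol had several. The other 4 (Ccna2, Cdc20, Kif20a and Foxm1) share a row with an overlapping gene and were left out of every count. Expression came from poly(A) RNA of EL4, a mouse T lymphoma line of C57BL/6 origin. In it, 2 libraries carried a short hairpin labelled shCTCF, against the chromatin architectural protein CTCF, and 2 carried a hairpin labelled shluc, written shLuc here, against luciferase, which these cells lack. These are 4 of the 21 samples of a series that also holds Hi-C and ChIP libraries. Since no separate hairpins against Ctcf are named in the labels, what follows from less CTCF and what follows from the hairpin itself cannot be told apart. The labels are silent on separate cultures, and the p-values therefore cover the spread between libraries alone, which may be technical.

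Entry into mitosis is driven by the kinase CDK1 with cyclins A and B, which CDC25 phosphatases switch on. Polo-like and Aurora kinases then build the spindle, the kinetochores attach chromosomes to it, and the spindle checkpoint holds back the anaphase-promoting complex until all are attached. Transcripts of most of these proteins accumulate in G2 and mitosis under the MuvB complex with B-MYB and FOXM1 and fall again in G1, so that in a culture they are abundant where many cells divide.

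Transcripts of mitosis and G2/M genes lay at nearly the same level in shCTCF and shLuc cells. Summed over the 36 genes, they amounted to 2473 and 2521 RPKM (reads scaled to the length of the gene model and to library depth) in the shCTCF libraries, against 2474 and 2554 RPKM in the shLuc libraries. None of the 36 passed the threshold of an adjusted p of 0.05 in limma, against 1.29% of the 9898 genes tested (0.697% higher and 0.596% lower in shCTCF). None had an unadjusted p below 0.05 either, against 14.1% of all. Without the filter 3 did (Ndc80, Kif2c and Kif4), against 1619 of all 21844 genes in that fit. A second test, limma-voom on recovered reads, called 0 of the 31 genes it could test, against 363 of all 7537 genes in that fit. The log2 change, the mean of log2(RPKM + 1) in shCTCF minus that in shLuc cells, was above 0 in 18 genes, against 53.3% of all tested genes, and below 0 in 18. Under quantile normalization 14 were above 0 and 22 below, so the sign of a change near 0 depends on the scaling. The median was -0.003, against 0.012 over all tested genes. In a bulk library a smaller share of cells in mitosis and less RNA per mitotic cell cannot be told apart.

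The size of change that these libraries leave room for was bounded for each gene. Single changes ran from -0.16 for Ncaph to 0.22 for Ndc80. The 95% limma intervals reached down to -0.38 and up to 0.48. In all 36 genes they lay inside a 1.5-fold change either way (0.585 on the log2 scale). They did so for 82.6% of all tested genes, and for 5808 of the 6170 tested genes within the same range of mean RPKM. The median absolute log2 change was 0.0606, against 0.104 over all tested genes and 0.0855 over those 6170 genes. Their median mean RPKM was 29.9, against 52.2 for the 36 genes, so only the range was matched. No mitosis gene, alone or in a joined row, is among the 435 rows of the authors' deposited table of changed genes. The full expression table has 22119 rows, but 8009 of them are at 0 in all libraries, whereas all 36 genes are expressed. Among expressed genes the share of changed rows is therefore higher than among all rows. A list this short could still hold none, which was not tested. Both tables come from the same libraries.

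**Figure D1:**
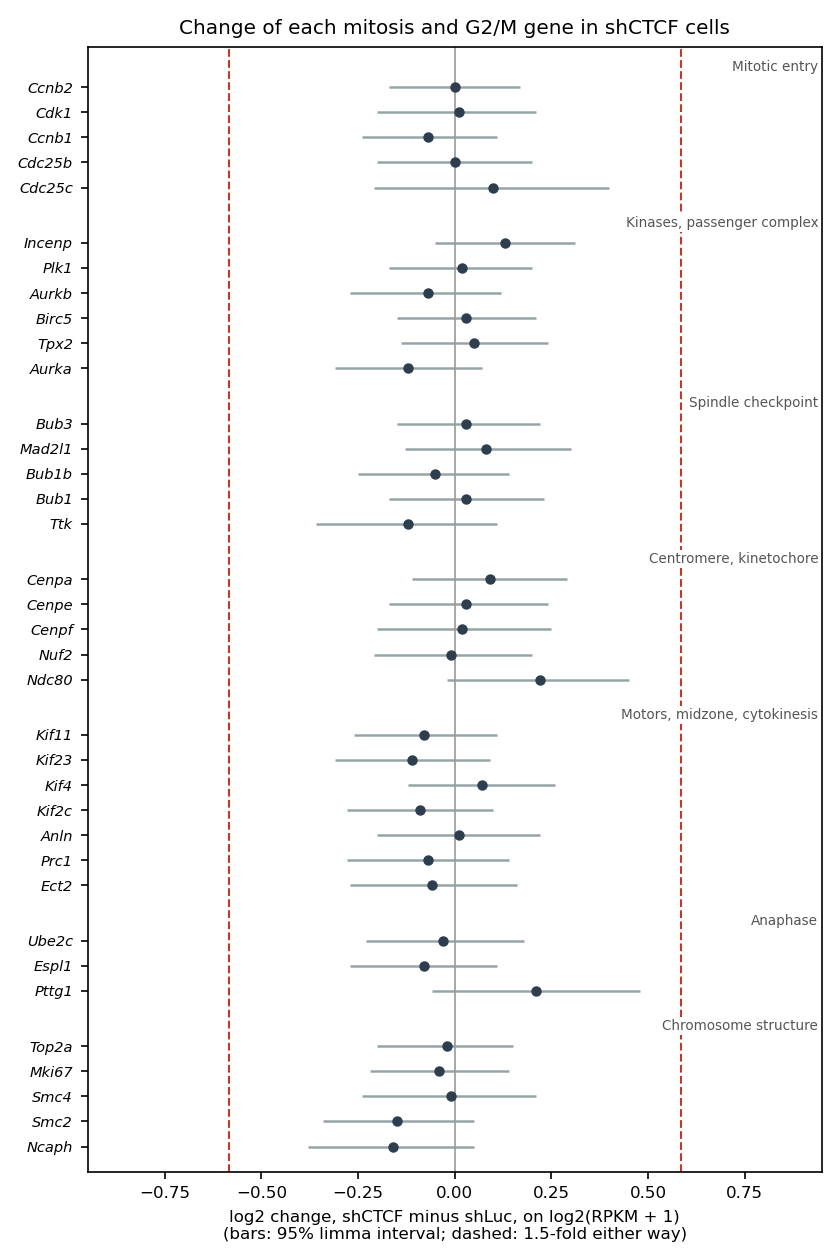
Log2 change of each of the 36 genes in shCTCF against shLuc cells on the log2(RPKM + 1) scale, grouped by role. Points are limma estimates from 2 libraries a group, bars are 95% intervals and dashed lines mark a 1.5-fold change. Every bar lies between the dashed lines, and none of the 36 genes passed the threshold.

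The hairpin's target was lower where its label says so. Ctcf (NM_181322) had 26.5 and 26.4 RPKM in the shCTCF libraries, against 49.0 and 50.9 RPKM in the shLuc libraries. It fell by 0.89 on the log2 scale (standard error, SE, 0.08; adjusted p = 0.0075 in limma). The call was lost without either shLuc library (adjusted p 0.15 in both fits), with changes of -0.92 and -0.86. The 4 libraries had divisors of about 4303000 and 5710000 reads (shCTCF) and 5187000 and 6071000 reads (shLuc), estimated from the RPKM values. T cell markers, which fit a T lineage but do not identify the line, had a row of their own in 9 of 10 cases and summed to 1500 and 1503 RPKM in the shCTCF libraries, against 1775 and 1702 RPKM in the shLuc libraries. None of these 9 passed the threshold, against 1.29% of all tested genes, and 6 had an unadjusted p below 0.05 in limma, against 14.1%. Their median log2 change was -0.224, against 0.012 over all tested genes. Markers of B cells (3 of 7 at 0 in all libraries), myeloid cells (4 of 8) and fibroblasts (1 of 5) summed to at most 3.63 RPKM in any library.

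The genes share promoter letters that the choice of the list did not use. RefSeq promoter windows (GRCm38.p6, from 250 bases before to 50 after a gene's start) were matched by symbol for 31 of the 36 genes, in 34 windows, and not for Cdc25c, Aurkb, Incenp, Tpx2 and Smc4. The letters TTTGAA or TTCGAA are the only forms searched of the cell cycle homology region, through which MuvB binds. On either strand, these letters were in 27 of the 34 windows (79.4%). They were in 14.4% of the 8157 windows of tested genes and in 19.2% of all 32851 windows. CCAAT, the box bound by the trimeric factor NF-Y, was in 76.5% of the windows, against 38.8% for tested genes and 37.4% for all. At least 2 such boxes were in 47.1%, against 15.1% and 11.7%. Both motifs together were in 70.6%, against 6.11% and 7.52%. The 7 letters AGGGGGC or AGGTGGC from the core of the CTCF motif were in 3 windows (8.82%), those of Bub1, Cdc25b and Kif4, against 21.9% for tested genes and 5259 of the 32851 windows of all genes. Median GC content was 59.7% in these windows and 60.7% in those of tested genes. A match of letters is a description and not a bound site.

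Genes of the preceding cell cycle phase shared the CCAAT box more than the homology region letters. Among 32 windows of a list of G1/S and replication genes the homology region letters were in 12.5%, whereas CCAAT was in 68.8%. In the windows of mitosis and G2/M genes the homology region letters tended to lie nearer the start than the CCAAT boxes. The first base was at -50 or later in 25 of 38 matches, with a median of -17 from the start. The 55 CCAAT matches had a median of -78, and 30 of them began between -100 and -21. These are not all separate sites. Bub3, Ect2 and Prc1 have overlapping windows in which a site can be counted again, and CCAAT matches at -186 and -183 in Ube2c overlap. No match of one motif overlapped a match of another. Positions were not counted in the windows of other genes, so this placement cannot be called particular to mitosis and G2/M genes.

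The order of the elements is shown for 7 genes in stretches from 130 bases before to 20 after the start, 5′ to 3′ on the gene's strand, in GRCm38.p6. Capitals mark CCAAT boxes, homology region letters and CTCF core letters, on either strand. Cdk1 and Ccnb2 are shown as the kinase and a cyclin of mitotic entry, with homology region letters after the last CCAAT box. Ccnb1 is shown because its window holds CCAAT boxes but neither TTTGAA nor TTCGAA on either strand. Other forms of the homology region were not searched for. Bub1 holds CTCF core letters as well. Kif11, Espl1 and Top2a carry the same order in a motor, the separase and a chromosome protein. They lie at chr10:69352893-69353042 (Cdk1, minus strand), chr9:70421535-70421684 (Ccnb2, minus), chr13:100786467-100786616 (Ccnb1, minus), chr2:127831840-127831989 (Bub1, minus), chr19:37376252-37376401 (Kif11, plus), chr15:102296163-102296312 (Espl1, plus) and chr11:99024170-99024319 (Top2a, minus).
Cdk1: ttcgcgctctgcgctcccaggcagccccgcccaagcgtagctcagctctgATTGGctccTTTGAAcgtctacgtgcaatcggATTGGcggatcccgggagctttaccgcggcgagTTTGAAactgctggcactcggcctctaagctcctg
Ccnb2: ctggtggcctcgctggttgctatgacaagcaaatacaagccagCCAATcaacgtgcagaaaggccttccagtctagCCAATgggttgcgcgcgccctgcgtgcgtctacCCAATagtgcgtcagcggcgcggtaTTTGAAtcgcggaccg
Ccnb1: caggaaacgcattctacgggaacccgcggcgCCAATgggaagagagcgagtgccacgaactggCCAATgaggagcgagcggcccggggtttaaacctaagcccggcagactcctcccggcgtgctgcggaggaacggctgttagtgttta
Bub1: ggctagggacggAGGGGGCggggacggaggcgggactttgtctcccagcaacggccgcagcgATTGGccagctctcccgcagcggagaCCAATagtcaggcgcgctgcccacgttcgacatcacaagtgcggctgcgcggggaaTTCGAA
Kif11: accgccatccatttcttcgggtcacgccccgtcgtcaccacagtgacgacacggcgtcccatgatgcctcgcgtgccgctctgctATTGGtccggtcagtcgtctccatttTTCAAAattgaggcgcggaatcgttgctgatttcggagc
Espl1: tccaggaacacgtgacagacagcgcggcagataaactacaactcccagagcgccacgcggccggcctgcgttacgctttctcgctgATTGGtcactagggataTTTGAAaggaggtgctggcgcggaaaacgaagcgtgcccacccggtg
Top2a: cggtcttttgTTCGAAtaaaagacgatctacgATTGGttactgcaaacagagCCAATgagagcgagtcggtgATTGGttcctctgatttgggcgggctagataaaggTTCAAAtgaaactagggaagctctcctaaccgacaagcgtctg

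**Figure D2:**
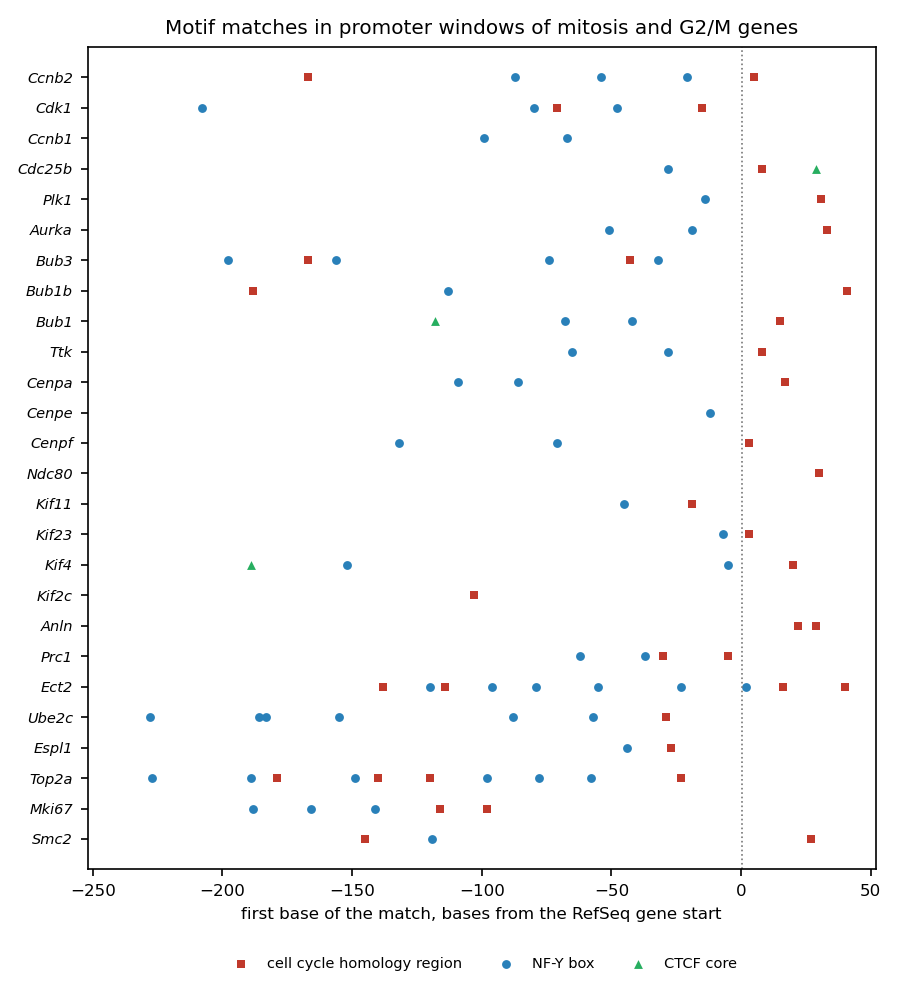
First base of each motif match in the RefSeq promoter windows of mitosis and G2/M genes, in bases from the gene start (dotted line). Rows are the genes with a match, and Bub3, Ect2 and Prc1 have 2 windows each, drawn in one row. Homology region matches (squares) lie mostly near the start, NF-Y boxes (circles) mostly before it, and CTCF core matches (triangles) occur in 3 genes.

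In EL4 cells most of these genes were well above the middle of the expressed genome. Mean RPKM over the 4 libraries ran from 11.2 for Cdc25c to 273.9 for Top2a with a median of 52.2, against a median of 17.7 over all tested genes. The median gene stood at percentile 82.4 of tested genes, and only Cdc25c and Ndc80 were below the middle. All 36 genes passed the filter of a mean of 1 RPKM over the 4 libraries.

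**Figure D3:**
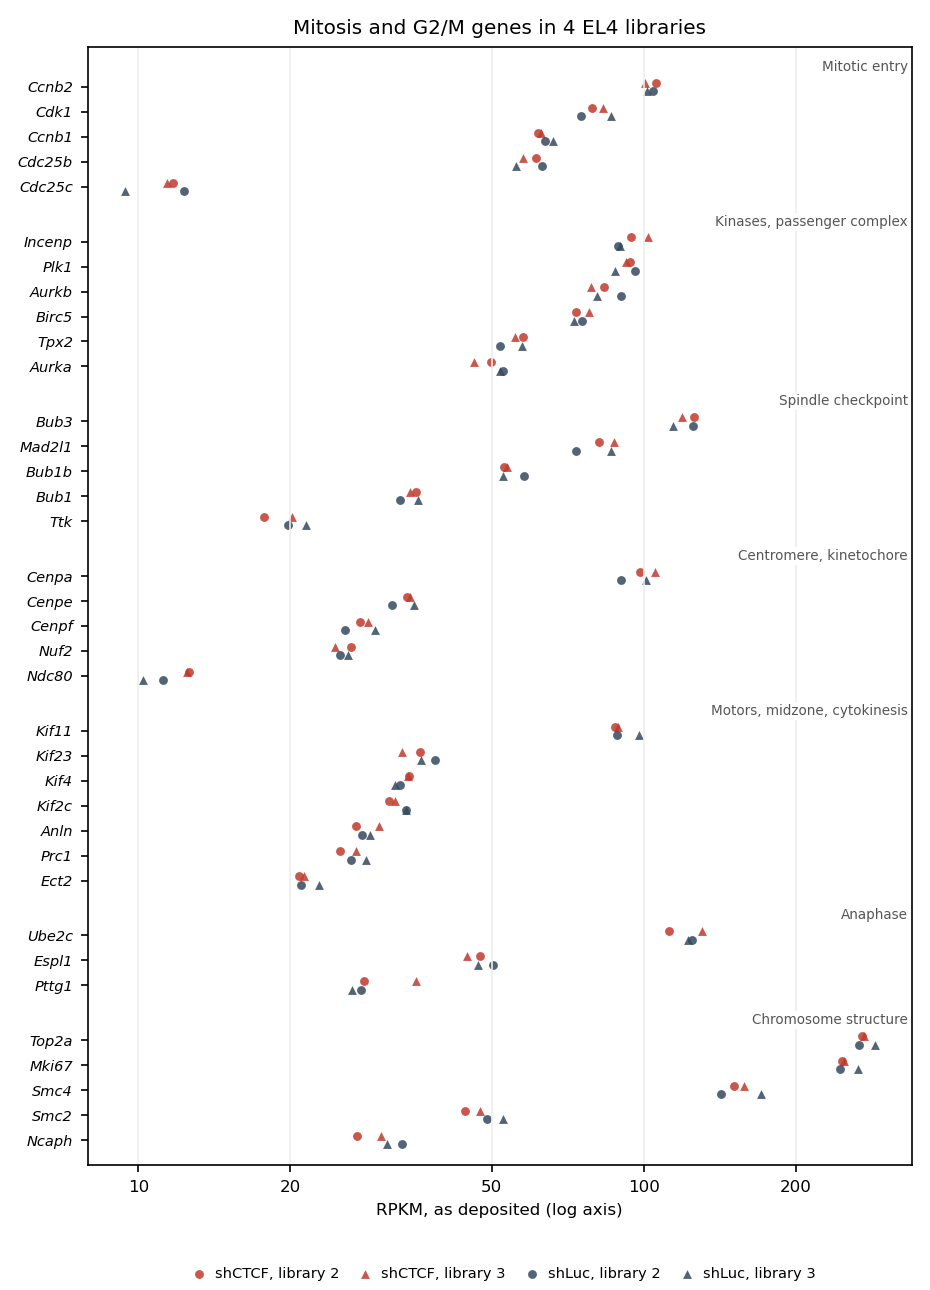
Deposited RPKM of the 36 genes in each library on a log axis, with shCTCF in red above shLuc in dark blue, and library 2 as circles and library 3 as triangles. Levels run from about 10 RPKM for Cdc25c and Ndc80 to between 244.5 and 286.2 RPKM for Top2a and Mki67, and the libraries of both hairpins lie close together in each row.

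Genes of mitotic entry had the smallest median absolute change of the 7 roles, 0.00719 on the log2 scale over 5 genes. Their median absolute difference between the 2 shLuc libraries, 0.162, was the largest of the 7 roles. The small change is therefore no measure of how stable these genes were. Cdk1, the kinase that starts mitosis, had 79.0 and 82.9 RPKM in the shCTCF libraries, against 75.3 and 86.1 RPKM in the shLuc libraries. The shLuc values enclosed the shCTCF ones, and the log2 change was 0.01 (95% interval -0.20 to 0.21). Ccnb2, a B-type cyclin and the most abundant gene of this group, had 105.7 and 100.6 RPKM in shCTCF, against 104.4 and 101.7 RPKM in shLuc cells. Again one group enclosed the other, with a log2 change of 0.00 (interval -0.17 to 0.17). Under quantile normalization both Cdk1 and Ccnb2 were at -0.03. Ccnb1, the cyclin that is essential for mitosis in mice, had 61.7 and 62.5 RPKM in shCTCF, against 63.9 and 66.2 RPKM in shLuc cells. Its groups did not overlap, with both shCTCF values lower, and the log2 change was -0.07 (SE 0.08, adjusted p = 0.78 in limma). Groups failed to overlap in 10 of the 36 genes, against 44.0% of all tested genes. In 4 of them shCTCF was higher (24.1% of all tested genes) and in 6 lower (19.9%).

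The CDC25 phosphatases remove inhibitory phosphates from CDK1. Cdc25b averaged 59.4 ± 2.39 RPKM in shCTCF and 59.4 ± 4.80 RPKM in shLuc cells (SD, n = 2 each). Cdc25c, the lowest of all members, had 11.7 and 11.4 RPKM in shCTCF, against 12.3 and 9.41 RPKM in shLuc cells. The shLuc libraries were farther apart than the groups, and at 99 to 128 recovered reads a library the interval was the widest of the group, -0.21 to 0.40. Of the 5 genes of this group with a row of their own, 4 had a change above 0 and 1 below, and none passed. Ccna2 (cyclin A2) and Foxm1 (a forkhead factor that activates G2/M genes) lie in joined rows. The row Ccna2+Exosc9 averaged 93.6 ± 0.343 RPKM in shCTCF and 92.3 ± 4.82 RPKM in shLuc cells, and 4933413G19Rik+Foxm1 averaged 58.8 ± 3.96 RPKM in shCTCF and 62.0 ± 4.06 RPKM in shLuc cells, with log2 changes of 0.02 and -0.07.

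Among the mitotic kinases and the chromosomal passenger complex, Incenp was both the most abundant gene and the one with the smallest p. INCENP is the scaffold that holds Aurora B at centromeres. Incenp had 94.5 and 102.1 RPKM in the shCTCF libraries, against 89.0 and 89.9 RPKM in the shLuc libraries. Both shCTCF values were higher, and the log2 change was 0.13 (SE 0.08, adjusted p = 0.52 in limma). The 2 shCTCF libraries differed from each other by 0.11 on the same scale. Plk1, the Polo-like kinase that matures centrosomes and kinetochores, had 93.9 and 92.3 RPKM in shCTCF, against 96.2 and 87.7 RPKM in shLuc cells, with a log2 change of 0.02. Aurka (spindle assembly) and Aurkb (the passenger complex kinase) had changes of -0.12 and -0.07, with averages of 48.0 ± 2.64 and 81.1 ± 3.19 RPKM in shCTCF, against 52.3 ± 0.389 and 85.6 ± 6.70 RPKM in shLuc cells (SD, n = 2 each). Birc5 (survivin) and Tpx2, which activates Aurora A on the spindle, had changes of 0.03 and 0.05. Of the 6 genes 4 were above 0 and 2 below, and none passed.

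The spindle checkpoint genes showed no common direction, with 3 of 5 above 0 and 2 below and a median of 0.027. Bub3, which brings BUB1 and BUBR1 to kinetochores, had 125.7 and 119.0 RPKM in shCTCF, against 125.3 and 114.1 RPKM in shLuc cells. Its groups overlapped and the log2 change was 0.03. Ttk, the kinase MPS1 that starts checkpoint signalling, had 17.7 and 20.1 RPKM in shCTCF, against 19.8 and 21.5 RPKM in shLuc cells. These groups also overlapped, with a change of -0.12 (SE 0.10, adjusted p = 0.66 in limma). Mad2l1, which sequesters CDC20, had the largest positive change of the group at 0.08 (interval -0.13 to 0.30), and Bub1 and Bub1b had 0.03 and -0.05.

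Kinetochore genes included the gene with the largest positive change of the list. Ndc80, the microtubule-binding subunit of the outer kinetochore, had 12.6 and 12.5 RPKM in the shCTCF libraries, against 11.2 and 10.2 RPKM in the shLuc libraries. Both shCTCF values were higher, and the log2 change of 0.22 (SE 0.10) had the smallest p of the 36 genes without passing (adjusted p = 0.41 in limma). It rested on 121 and 159 recovered reads in shCTCF and 129 and 138 in shLuc cells. Counting alone gives an SD of 0.177 to a log2 ratio of the 2 shLuc libraries, and a smaller one to a difference between means of 2 libraries. Nuf2, the partner of NDC80 in the same complex, averaged 25.5 ± 1.34 RPKM in shCTCF and 25.6 ± 0.679 RPKM in shLuc cells (SD, n = 2 each), a change of -0.01.

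Cenpa, the histone H3 variant of centromeric nucleosomes, was the most abundant of this group. It had 98.3 and 105.3 RPKM in shCTCF, against 90.2 and 100.9 RPKM in shLuc cells, and the groups overlapped (log2 change 0.09, interval -0.11 to 0.29). Cenpe, a kinetochore motor, and Cenpf, a large coiled-coil protein of the kinetochore corona, had changes of 0.03 and 0.02. Of the 5 genes 4 were above 0.

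Of the motors, midzone and cytokinesis genes 5 of 7 were below 0, against 4619 of all 9898 tested genes, which so short a list cannot be told from. Their median was -0.067 and no gene passed the threshold. Kif11, the plus-end motor Eg5 that pushes spindle poles apart, had 87.6 and 89.1 RPKM in shCTCF, against 88.7 and 97.9 RPKM in shLuc cells. One shLuc library was high and the groups overlapped (log2 change -0.08). Kif23, the MKLP1 motor of the central spindle, had 36.1 and 33.3 RPKM in shCTCF, against 38.6 and 36.2 RPKM in shLuc cells. The higher shCTCF value was just below the lower shLuc value, with a change of -0.11 (SE 0.09, adjusted p = 0.66 in limma). Kif2c, a microtubule depolymerase, was lower in both shCTCF libraries (-0.09), and Kif4, a chromosome-bound motor, was higher in both (0.07). Prc1, which bundles midzone microtubules, Ect2, which activates RhoA at the cleavage furrow, and Anln, which organises the contractile ring, had changes of -0.07, -0.06 and 0.01. Kif20a lies in the row Brd8+Cdc23+Kif20a, which averaged 86.2 ± 0.876 RPKM in shCTCF and 85.1 ± 2.18 RPKM in shLuc cells.

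Among genes of anaphase, Pttg1 had the second largest positive change, and 1 library carried it. PTTG1 is securin, the inhibitor of separase. Pttg1 had 27.9 and 35.4 RPKM in the shCTCF libraries, against 27.6 and 26.5 RPKM in the shLuc libraries. One shCTCF library was close to the shLuc values and the other well above them, and the log2 change was 0.21 (SE 0.12, adjusted p = 0.50 in limma). Without shCTCF library 3 the change was 0.04, and without shCTCF library 2 it was 0.38, so the value rests on library 3.

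Ube2c, the ubiquitin-conjugating enzyme of the anaphase-promoting complex, also spread widely between the shCTCF libraries. It had 112.4 and 130.2 RPKM in shCTCF, against 124.4 and 122.4 RPKM in shLuc cells. The shCTCF values enclosed the shLuc ones (log2 change -0.03). Espl1, the separase that cleaves cohesin, averaged 46.0 ± 1.92 RPKM in shCTCF and 48.8 ± 2.32 RPKM in shLuc cells (SD, n = 2 each), a change of -0.08. Cdc20, the activator of the complex, lies in the row Cdc20+Elovl1 with 194.4 and 194.9 RPKM in shCTCF, against 194.2 and 176.7 RPKM in shLuc cells.

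The 5 chromosome structure genes had changes from -0.16 to -0.01, and none passed. Over all tested genes 53.3% were above 0. That all 5 were below 0 rests on shLuc library 3, without which Smc4 had 0.12, Top2a 0.03 and Mki67 0.02, and Smc4 also had 0.02 without shCTCF library 2. Ncaph, the kleisin of condensin I, had 27.1 and 30.2 RPKM in the shCTCF libraries, against 33.2 and 31.0 RPKM in the shLuc libraries. Both shCTCF values were lower and the log2 change of -0.16 was the most negative of the 36 genes (SE 0.09, adjusted p = 0.51 in limma). Its size and rank depended on single libraries. It was -0.08 without shCTCF library 2, where the lowest of the 36 genes was at -0.18, and -0.24 without shCTCF library 3. Smc2, an ATPase core subunit of both condensins, had 44.2 and 47.5 RPKM in shCTCF, against 49.0 and 52.7 RPKM in shLuc cells. Its groups did not overlap either, with a change of -0.15 (SE 0.09, adjusted p = 0.51 in limma).

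Smc4, the partner of SMC2 in the condensin ring, had 150.9 and 158.1 RPKM in shCTCF, against 141.9 and 170.8 RPKM in shLuc cells. The shLuc libraries enclosed the shCTCF ones, with a change of -0.01. Among other condensin subunits Ncapd3, Ncapd2 and Ncapg2 averaged 26.6 ± 0.00822, 111.5 ± 5.45 and 55.0 ± 0.324 RPKM in shCTCF, against 31.3 ± 1.18, 118.0 ± 9.11 and 56.8 ± 4.88 RPKM in shLuc cells (SD, n = 2 each). Their log2 changes were -0.23, -0.08 and -0.04, and Ncapd3 missed the threshold (unadjusted p = 0.028, adjusted p = 0.27 in limma). Top2a, which untangles sister chromatids, had 270.9 and 272.3 RPKM in shCTCF, against 266.2 and 286.2 RPKM in shLuc cells. Mki67, the coat protein of mitotic chromosomes, had 246.9 and 248.6 RPKM in shCTCF, against 244.5 and 265.7 RPKM in shLuc cells. Both overlapped between the groups, at changes of -0.02 and -0.04.

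Differences between libraries of the same hairpin show the spread behind these comparisons. The median absolute log2 difference between the 2 libraries was 0.0747 in shCTCF and 0.116 in shLuc cells, against 0.105 and 0.120 over all tested genes. Between the group means it was 0.0606, but single libraries differ more than means of 2 do even where nothing changes, so these values are set beside all tested genes and not against each other. The shCTCF difference exceeded the group difference in 20 of 36 genes, against 51.1% of all tested genes. The shLuc difference exceeded it in 24, against 53.5%, and both library differences exceeded it in 16, against 35.5%. In shLuc cells the differences had both signs. Of 31 genes with recovered reads, 13 differed between the shLuc libraries by more than 2 counting SDs, 9 with library 3 higher and 4 with library 3 lower. Such a count was not made over all tested genes for either hairpin, so it cannot be called particular to these genes. Counting SDs are small where reads are many, as in Mki67 (0.017 for the shLuc libraries).

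The genes on each side were not of one role. Smc4 (0.27), Mad2l1 (0.22), Cdk1 (0.19) and Cenpf (0.19) were higher in shLuc library 3, with Cenpa, Cenpe, Kif11, Mki67 and Top2a. Aurkb (-0.16), Bub1b (-0.14), Plk1 (-0.13) and Bub3 (-0.13) were lower there. In shCTCF cells 4 of the 31 differed by more than 2 counting SDs, all with library 3 higher, namely Pttg1 (0.33), Ube2c (0.21), Anln (0.15) and Incenp (0.11). Counting SDs cover counting error only, and they assume that the recovered reads, the smallest whole numbers that fit, are not too low.

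**Figure D4:**
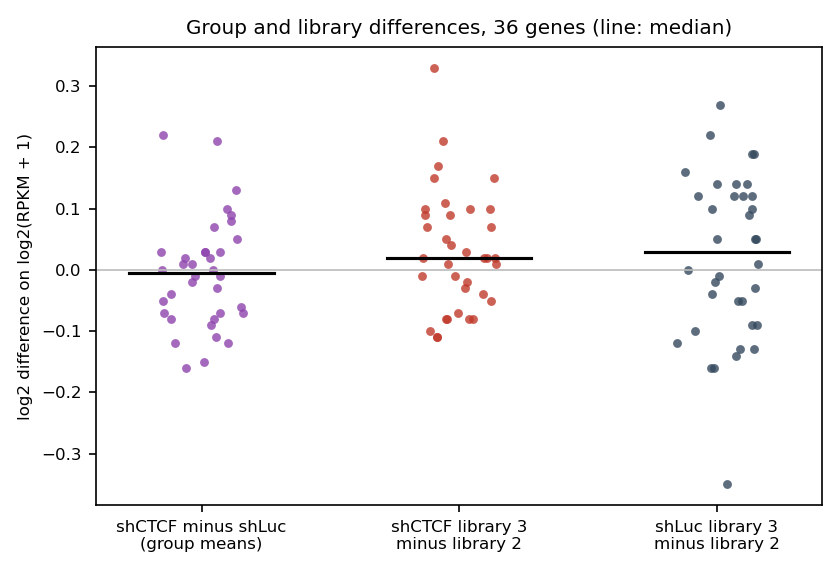
Log2 differences of the 36 genes on the log2(RPKM + 1) scale, each point a gene and each line a median. Differences between group means (left) run from -0.16 to 0.22, those between the 2 shCTCF libraries (middle) from -0.11 to 0.33 and those between the 2 shLuc libraries (right) from -0.35 to 0.27.

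Further lists of mitotic genes were too short for a count of calls to tell them from the background of 1.29% of all tested genes, and are described by their values. Of 20 tested further regulators of mitosis 12 were above 0 and the median was 0.019, and Cks2, a CDK-binding subunit, had the smallest p (log2 change 0.26, adjusted p = 0.22 in limma). Of 25 further kinetochore genes 13 were above 0 with a median of 0.019, led by Cenpm, a subunit of the constitutive centromere network, at -0.27 (adjusted p = 0.22). Of 12 further motor and cytokinesis genes 2 were above 0 with a median of -0.023, with Cit (citron kinase) at -0.16. Of 14 genes of the anaphase-promoting complex and its partners 7 were above 0 with a median of -0.004, with Anapc13, a small subunit, at 0.22. Of 9 MuvB and DREAM genes 3 were above 0 with a median of -0.044, with Tfdp2, a dimer partner of E2F factors, at -0.19. The number past the threshold was 0 in each of these lists. At an unadjusted p below 0.05, which 14.1% of all tested genes had in limma, it was 1 of the regulators (Cks2), 2 of the kinetochore genes and 0 of the rest.

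In log2 change the G1/S and replication list had a lower median than the mitotic one. Of its 31 tested genes 9 were above 0 and 22 below, with a median of -0.059, while 18 of 36 mitosis and G2/M genes were above 0 with a median of -0.003. None of the 31 passed, against 1.29% of all tested genes, and 3 had an unadjusted p below 0.05 in limma, against 14.1% of all. Whether the lists differ was not tested. Orc1, a subunit of the origin recognition complex, had the smallest p there, with 11.3 and 13.2 RPKM in shCTCF, against 17.0 and 15.0 RPKM in shLuc cells (log2 change -0.36, adjusted p = 0.21 in limma). Among 11 tested CDK inhibitors and p53 pathway genes 7 were above 0 with a median of 0.073. None of the 11 passed and 3 had an unadjusted p below 0.05 in limma, beside the same shares of all tested genes. Cdkn2b, the inhibitor p15 of CDK4 and CDK6, averaged 14.2 ± 1.60 RPKM in shCTCF and 9.10 ± 0.117 RPKM in shLuc cells (SD, n = 2 each). Its log2 change of 0.58 was the largest of these lists and just missed the threshold (SE 0.11, adjusted p = 0.056 in limma). Cdkn1a, the inhibitor p21 through which p53 represses G2/M genes, averaged 29.8 RPKM in shCTCF and 28.3 RPKM in shLuc cells.

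**Figure D5:**
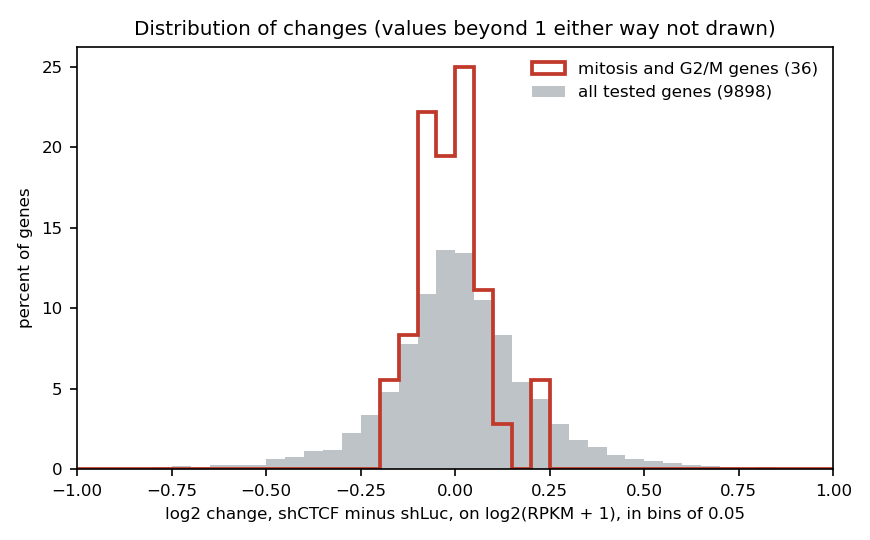
Percent of genes by log2 change (bins of 0.05, shCTCF minus shLuc), for the 36 mitosis and G2/M genes (red outline) and all 9898 tested genes (grey), with values beyond 1 either way not drawn. The mitotic genes lie between -0.16 and 0.22, inside the wider spread of all genes.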

How the data were processed

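Expression was deposited by the authors as RPKM per gene model, for 2 shCTCF and 2 shLuc libraries of EL4 cells. Reads were aligned with Bowtie2 to mm9, per the submitters' processing notes. Sources used here do not give the gene counter, the annotation release, or any use of strand or of reads with several matches. Rows join overlapping genes. For 435 changed genes a second table, also deposited by the authors, holds the same RPKM beside a log2 fold change, log2 CPM, p-value and FDR, per the file headers. It numbers the libraries otherwise than the full table, whose numbers (2 and 3) name them here, and they entered only as members of their hairpin's group.

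The test was limma 3.58.1 in R 4.3.3 (trended eBayes) on log2(RPKM + 1), without further normalization, over the 9898 symbols with a mean of 1 RPKM or more, with Benjamini-Hochberg adjustment and a threshold of 0.05. The log2 scale with a pseudocount understates changes of low genes. Per-library values are named for Ctcf, any gene past the threshold, the most abundant gene and the smallest p in each of 7 roles, and the 2 largest changes either way (14 genes). Values for other members were chosen after they were seen. Whole reads were searched for from ratios of RPKM between libraries and were found for 98.5% of 7035 rows with 1 transcript and 21.9% of 2905 with several. They can be too low by a common factor. Both steps were tested on simulated data. Promoter sequences are from RefSeq (GRCm38.p6), used for sequence only. Protein sequences and Hi-C domains were not used here. Members and lists were chosen with earlier results of these data known. Calculations used Python 3.11.15, numpy 2.4.6, pandas 2.3.3 and matplotlib 3.10.9.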

Additional observations from a re-analysis of the deposited data

How the results depend on the processing

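No mitosis or G2/M gene was called under any alternative: a pseudocount of 0.1, no filter, a filter at a mean of 5 RPKM, quantile normalization, limma-voom on recovered reads (31 of the genes), a replicate block or 1 library left out. Over these the smallest adjusted p of a member was 0.239, for Pttg1 without shCTCF library 2. The count over all genes was 128, and it was 363 with limma-voom on recovered reads, 0 without the filter (1619 at an unadjusted p below 0.05) and 0 to 78 with 1 library left out. With the library number as a replicate block it was 507, and the members called remained 0. The block rests on the library number, and the labels do not say whether libraries of the same number belong together. The library differences of both hairpins correlated at 0.16 across genes, which does not settle whether they do. The members' median of -0.003 became -0.028 under quantile normalization and -0.033 to -0.001 with 1 library left out. Ctcf kept a change of -0.89 without the filter but not the call (adjusted p 0.22), and had -0.92 to -0.86 with 1 library left out. Signs turned in values near 0. Under quantile normalization Ccnb2 had -0.03, Cdk1 -0.03 and Plk1 -0.01, and with limma-voom Ccnb2 had 0.00. With 1 library left out the ranges were -0.03 to 0.10 for Bub3, -0.03 to 0.04 for Ccnb2, -0.08 to 0.27 for Cdc25c, -0.09 to 0.10 for Cdk1, -0.10 to 0.02 for Mki67, -0.24 to -0.08 for Ncaph (which kept its sign), -0.05 to 0.09 for Plk1, -0.14 to 0.12 for Smc4, -0.08 to 0.03 for Top2a and -0.13 to 0.08 for Ube2c. The intervals of all members lay inside 1.5-fold under each alternative except no filter (34 of 36) and leaving out shCTCF library 2, shLuc library 2 or shLuc library 3 (35 of 36 each). The cause of these shifts was not tested, beyond the fewer libraries or genes in each fit.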
